A study of Mus musculus with 4 samples.

Results

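Macrophage marker genes were followed in RNA from sorted hair follicle stem cells (HF-SCs). The set holds 10 genes, *Lyz2*, *Csf1r*, *Tyrobp*, *Fcer1g*, *C1qa*, *C1qb*, *C1qc*, *Cd68*, *Mrc1* and *Ptprc*. They were chosen by name, with earlier differences of the same induced against control contrast known, and by a mean normalized count above 0 in the 2-d table. All 10 were found, among 17044 genes with a mean above 0 and 24421 genes in all. Because the contrast itself was in view when the genes were picked, their differences between the groups, with the intervals and p-values of the fit over all genes, are a description and not independent evidence.

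Bulk RNA-seq compared HF-SCs of 2 control and 2 *miR-205*-induced mouse samples. The transgene places *miR-205* under pTRE2 and is switched on by doxycycline through *Krt14*-rtTA, a driver active in basal keratinocytes and HF-SCs rather than in blood-derived cells. Both groups carried a K14-H2BGFP allele, which lights up the nuclei of *Krt14*-expressing cells. Dorsal skin cells were sorted as DAPI-negative, H2BGFP-high, Sca1-negative, α6-high and CD34-high, from mice whose labels give the age P44 after doxycycline from P42 and the strain C57BL/6, with the transgene made by injection into FVB. The labels call the control mice untreated, whereas the protocol feeds doxycycline to both groups. Nothing says how many mice made up a library, so the spread between libraries may be technical in part. The methods speak of littermate controls in general, but which control library goes with which induced library is not given.

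Macrophages are phagocytes of the myeloid lineage that live in the dermis around the hair follicle and enter tissues from the blood as monocytes. CSF1R signalling keeps them alive, complement C1q and scavenger or lectin receptors tag and bind what they engulf, and lysosomal enzymes digest it. In the skin they are known for clearing dying cells, for wound repair and for exchange of signals with the hair follicle across its cycle.

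The miRNA induced in these mice is shown first, because its induction is what the labels set between the groups. The mature strand is taken from RefSeq (GRCm38.p6, chr1:193507503-193507524, minus strand), with the seed, bases 2 to 8, in capitals.
miR-205-5p: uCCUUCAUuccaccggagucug
A 7-base match to this seed, ATGAAGG, occurred in the longest annotated 3' UTR of 1 of the 10 marker genes, *Csf1r*, and in 10.4% of 19915 genes with a 3' UTR (GENCODE vM1 on NCBIM37). The shorter 6-base match TGAAGG occurred in the 3' UTRs of 3 marker genes, *Csf1r*, *Fcer1g* and *C1qa*, and in 32.3% of all genes. The 3' UTRs of the marker genes were short, with a median of 266 bases against 893 bases over all genes. A match is a string of letters and not evidence of binding.

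Promoter sequences are shown for 4 marker genes, those of lysozyme, a pair of C1q chains and the mannose receptor. The capitals mark 2 letter patterns searched on both strands in the 250 bases before the start, GAGGAA and GGAAGT, which are purine-rich patterns of the kind that ETS factors such as PU.1, the master regulator of myeloid cells, are known to bind. The patterns overlap by 4 letters where they run together as GAGGAAGT, and the second was picked after the sequences had been read. RefSeq on GRCm38.p6 places the 220 bases shown, which end just before the start, at chr10:117282273-117282492 for *Lyz2* (minus strand), chr4:136886201-136886420 for *C1qb* (minus strand), chr4:136892915-136893134 for *C1qc* (minus strand) and chr2:14229194-14229413 for *Mrc1* (plus strand).
Lyz2: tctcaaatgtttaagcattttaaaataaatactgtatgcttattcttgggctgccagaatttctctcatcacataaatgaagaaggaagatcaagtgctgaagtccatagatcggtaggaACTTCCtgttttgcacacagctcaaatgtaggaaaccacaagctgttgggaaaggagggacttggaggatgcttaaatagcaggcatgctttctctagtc
C1qb: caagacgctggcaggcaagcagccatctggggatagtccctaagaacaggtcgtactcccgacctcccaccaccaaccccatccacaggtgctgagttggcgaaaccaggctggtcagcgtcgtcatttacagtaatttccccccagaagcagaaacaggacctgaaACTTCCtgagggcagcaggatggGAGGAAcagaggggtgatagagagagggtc
C1qc: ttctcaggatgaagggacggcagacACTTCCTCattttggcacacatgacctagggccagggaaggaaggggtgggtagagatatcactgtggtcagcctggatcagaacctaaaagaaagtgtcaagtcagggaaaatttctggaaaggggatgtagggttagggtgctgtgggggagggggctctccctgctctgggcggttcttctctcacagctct
Mrc1: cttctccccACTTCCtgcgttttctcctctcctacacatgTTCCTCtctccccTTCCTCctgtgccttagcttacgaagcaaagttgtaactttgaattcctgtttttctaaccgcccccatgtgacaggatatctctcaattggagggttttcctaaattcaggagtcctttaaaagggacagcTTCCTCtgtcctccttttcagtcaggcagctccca
Promoters were held for 7 of the 10 marker genes, *Lyz2*, *Fcer1g*, *C1qb*, *C1qc*, *Cd68*, *Mrc1* and *Ptprc*. GAGGAA was found before the start of 5 of these, *C1qb*, *C1qc*, *Cd68*, *Mrc1* and *Ptprc*, and before 25.9% of 27025 genes. GGAAGT was found before 5, *Lyz2*, *C1qb*, *C1qc*, *Mrc1* and *Ptprc*, and before 22.2% of all genes. In *Lyz2* the match began 100 bases before the start, and in *C1qb* the pair began 53 and 30 bases before it. In *C1qc* both patterns lay in 1 overlapping run that began 195 bases before the start. *Fcer1g* had neither pattern in this window. The only match of *Cd68* began 225 bases before the start, outside a stretch of 220 bases. Every promoter shown thus holds a pattern, which is not so for every promoter of the marker genes. These counts describe letters in a window chosen here and say nothing of occupancy.

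The deposited table holds 1 value per gene for the level, the mean normalized count over the 4 libraries, which is the number of reads divided by the size factor of each library and averaged. This mean was written to 15 significant digits, and for all 14591 genes with a mean up to 1000 only 1 set of 4 whole read numbers gave it. The 4 libraries were told apart by size factor and are named control A (1.24), control B (0.716), induced A (1.18) and induced B (0.966), where the letters are not the replicate numbers of the labels. The 10 marker genes had between 13 and 906 reads in a library, and control B was the shallowest, its size factor being 1.73-fold below that of control A. A difference is given as log2 of (normalized count + 0.5), induced minus control, from limma with a mean-variance trend, and its ± is a standard error with n = 2 libraries per group.

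Genes that define the sorted cells were far above the macrophage markers in the authors' mean. *Krt14*, *Krt15* and *Krt5*, keratins of basal and bulge cells, had mean normalized counts of 90971, 119883 and 146090. The sort markers *Cd34* and *Itga6* had means of 14575 and 12910. These genes lie above the limit of 1000, so they were not resolved by library. *Ly6a*, which encodes the Sca1 antigen the gate selected against, had normalized counts of 146 and 60.0 in control A and B and 159 and 179 in induced A and B. The *Mir205* row held 17 and 8 reads in the control libraries and 8 and 1 in the induced libraries, too few for the mean filter of 10. Libraries of this kind do not read the mature miRNA, so this row does not check the induction, and its direction was opposite to that of the labels.

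The macrophage markers together were a small share of the RNA. Their summed mean was 0.0101% of the summed mean of all genes. The summed normalized count was 1008 in control A, 768 in control B, 1971 in induced A and 1533 in induced B. Both induced libraries lay above both controls, and the ratio of the group means was 1.97. In sorted bulk RNA, more cells of a type and more RNA per cell cannot be told apart.

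Per kilobase of exon (GENCODE vM1), *Lyz2* had the highest level of the marker genes in all 4 libraries and *Cd68* the next highest. The authors' mean per kilobase was 342 for *Lyz2*, 155 for *Cd68*, 77.6 for *Tyrobp*, 65.5 for *C1qa* and 56.9 for *C1qb*. It was 33.5 for *Fcer1g*, 33.0 for *Csf1r*, 28.1 for *Mrc1*, 24.5 for *C1qc* and 15.1 for *Ptprc*. In all 9 neighbouring pairs of this order the ranges over the 4 libraries overlapped.

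*Lyz2* (chr10:116714390-116719377, minus strand; all gene places are on NCBIM37) encodes lysozyme M, the secreted enzyme of macrophages and neutrophils that cleaves bacterial cell walls. Its normalized count was 234 in control A and 272 in control B, against 769 in induced A and 523 in induced B. The lower induced library was 1.92-fold above the higher control, the widest separation but for that of *Tyrobp*. The log2 difference was 1.33 ± 0.18, with a 95% interval from 0.92 to 1.73. *Lyz1*, a near copy on which reads could be split, had 41.2 and 26.5 in the controls and 129 and 85.9 in the induced libraries, and so had the same order of groups as *Lyz2*.

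*Csf1r* encodes the receptor for the growth factors CSF1 and IL-34, on which tissue macrophages depend. Its normalized count was 143 and 97.7 in control A and B and 249 and 202 in induced A and B. The groups did not overlap, and the log2 difference was 0.92 ± 0.22. Of its ligands, *Il34*, known as the form made by keratinocytes, had 48.5 and 54.4 in the controls and 81.4 and 96.2 in the induced libraries, at 0.78 ± 0.27. *Csf1* went the other way, with 185 and 148 against 123 and 130, at -0.39 ± 0.20. Neither ligand passed an adjusted p of 0.05 (limma, Benjamini-Hochberg over 10238 genes), with adjusted p-values of 0.290 for *Il34* and 0.481 for *Csf1*.

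*Tyrobp* (chr7:31198807-31202596, plus strand) and *Fcer1g* (chr1:173159703-173164496, minus strand) encode the adapters DAP12 and the common Fc receptor γ chain. They carry the signalling motifs that activating myeloid receptors lack. *Tyrobp* had normalized counts of 23.5 and 26.5 in the controls and 56.8 and 68.3 in the induced libraries. The lower induced library was 2.14-fold above the higher control, and the log2 difference was 1.30 ± 0.35. *Fcer1g* had 21.0 and 19.5 in the controls, 40.7 in induced A and 25.9 in induced B. Induced B was only 1.23-fold above control A, and the log2 difference of 0.67 ± 0.45 had a 95% interval from -0.32 to 1.65. It was 0.34 without induced A. A list of 22 receptors and kinases that signal with these adapters was also read. Of the 9 that could be tested, 0 passed the adjusted p and 1 had an unadjusted p under 0.05 as higher, beside 6.93% of all genes. Both induced libraries lay above both controls for 7, an order held by 26.3% of all 10238 genes tested. *Syk*, the kinase that binds the adapters, had 333 and 286 against 358 and 382, at 0.26 ± 0.14. *Plcg2*, the most abundant gene of the list and downstream of *Syk*, had a mean of 1305, above the limit. *Trem2*, a DAP12 partner of tissue macrophages, had 0 to 2.54 normalized counts in a library.

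*C1qa*, *C1qb* and *C1qc* encode the 3 chains of C1q, the first complement component, of which macrophages are a main source. The genes lie side by side on the minus strand of chromosome 4, *C1qb* at chr4:136436044-136442102, *C1qc* at chr4:136445719-136448980 and *C1qa* at chr4:136451832-136454718. *C1qa* had normalized counts of 58.2 and 33.5 in control A and B and 105 and 75.5 in induced A and B. *C1qb* had 53.4 and 34.9 against 80.6 and 78.6. Both were lowest in control B, and neither overlapped between the groups. *C1qc* had 51.8 in control A and 18.1 in control B, against 54.3 in induced A and 65.2 in induced B. Control A was close to induced A for this chain, the lowest induced value being 1.05-fold above the highest control, and the 13 reads in control B give an exact 95% Poisson interval of 9.66 to 31.0, for counting error only. The log2 differences were 1.00 ± 0.34 for *C1qa*, 0.88 ± 0.31 for *C1qb* and 0.94 ± 0.47 for *C1qc*. These rested in part on control B, since without it they were 0.61, 0.57 and 0.20, and without control A 1.40, 1.18 and 1.69. Within the C1q total, *C1qc* made up 31.7% and 21.0% in the controls and 22.6% and 29.7% in the induced libraries, so that its share overlapped between the groups.

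The proteases that C1q carries and later complement genes did not share this order. Of 17 listed genes of complement and CSF1R ligands in the table, 15 were tested and 0 passed the adjusted p in either direction. An unadjusted p under 0.05 with a higher level in the induced libraries was met by 4, beside 6.93% of all genes tested, and 1 had a lower level. *C1s1*, the most abundant protease gene here, had 632 and 463 in the controls and 401 and 481 in the induced libraries, at -0.30 ± 0.17. *Calr*, the most abundant gene of the list, encodes a chaperone that C1q can bind and had a mean of 5095, above the limit. The C5a receptor *C5ar1*, named after its values were seen, had 4.04 and 2.79 against 29.7 and 13.5, and its log2 difference of 2.41 ± 0.76 did not pass (limma adjusted p = 0.243).

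*Cd68* (chr11:69477715-69479655, minus strand) encodes a glycoprotein of late endosomes and lysosomes. Its normalized count was 217 in control A, 120 in control B, 203 in induced A and 241 in induced B. It was the only marker gene whose groups overlapped, since control A lay above induced A. The log2 difference was 0.45 ± 0.25, with a 95% interval from -0.11 to 1.01. Without control B the difference of *Cd68* was 0.03, and without control A it was 0.88.

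*Mrc1* (chr2:14151041-14253684, plus strand) encodes the mannose receptor CD206, a lectin of resident dermal macrophages. Its normalized count was 150 and 83.8 in control A and B and 281 and 154 in induced A and B. Induced B exceeded control A by only 1.03-fold, and the log2 difference was 0.89 ± 0.32. It was 0.47 without control B and 0.46 without induced A. The 2 induced libraries differed 1.82-fold for *Mrc1*, the widest gap within the induced pair among the marker genes.

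*Ptprc* (chr1:139959438-140071882, minus strand) encodes CD45, the phosphatase on the surface of all nucleated blood cells. Its normalized count was 57.4 and 61.4 in the controls, which lay close together, and 132 and 99.3 in the induced libraries. The log2 difference was 0.94 ± 0.26, with a 95% interval from 0.37 to 1.52.

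**Figure D1:**
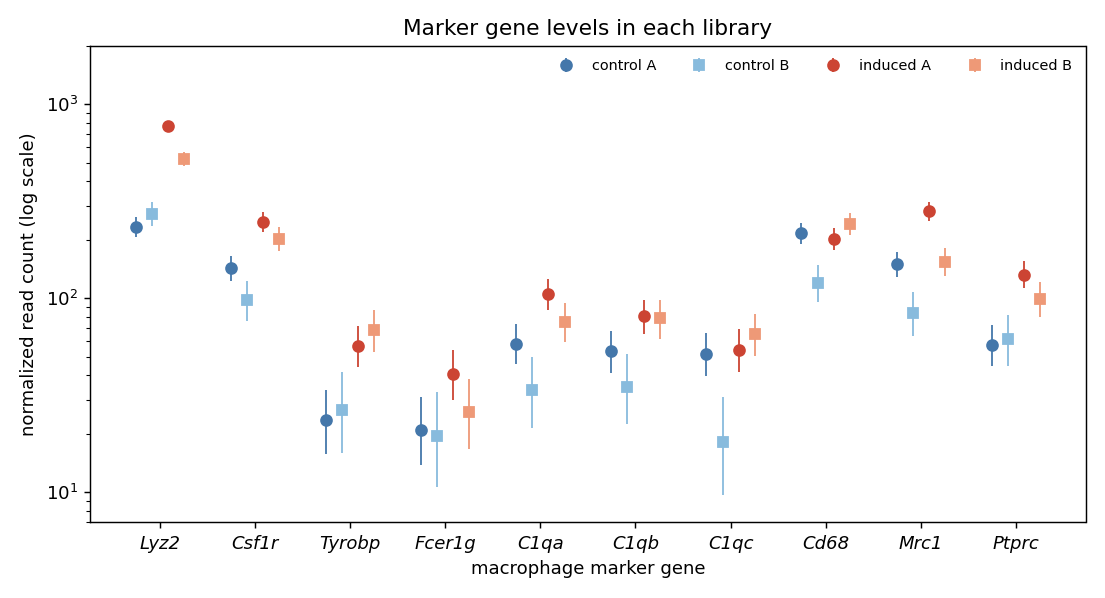
Normalized read count (log scale) of the 10 macrophage marker genes in each of the 4 libraries, blue for control and red for induced, with exact 95% Poisson intervals for counting error as bars. Both induced points lie above both control points for 9 genes, and for *Cd68* control A (217) lies above induced A (203).

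Both induced libraries lay above both controls for 9 of the 10 marker genes, and this held for 26.3% of all 10238 genes tested, with the reverse order in 17.6%. Of the 10 marker genes, 1 passed an adjusted p of 0.05 (limma, Benjamini-Hochberg), *Lyz2* at 0.0116. Among all genes 0.488% passed, 0.254% as higher and 0.234% as lower in the induced libraries. An unadjusted p under 0.05 with a higher level was met by 7 marker genes, all but *Fcer1g*, *C1qc* and *Cd68*, and by 6.93% of all genes. Nothing is read from these counts, because the genes were picked with this contrast known. The count of marker genes past the adjusted p was 0 without control A, 0 without control B, 1 without induced A and 2 without induced B, where *Mrc1* was added. *Lyz2* then had limma adjusted p-values of 0.0974, 0.0535, 0.0116 and 7.95e-05 in turn. With a block for pairs of libraries the count was 1 if control A is paired with induced A and 6 if it is paired with induced B, and which pairing is right is not known.

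All 10 marker genes had a positive log2 difference, from 0.45 to 1.33 with a median of 0.93, beside a median of 0.05 over all genes tested. The 95% intervals of 7 lay above 0. The log2 ratio of the summed count was 0.98. *Lyz2* and *Tyrobp* had the largest differences and *Cd68* and *Fcer1g* the smallest. Without *Lyz2* the ratio of the summed counts was 1.74, and without *Cd68* it was 2.13.

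**Figure D2:**
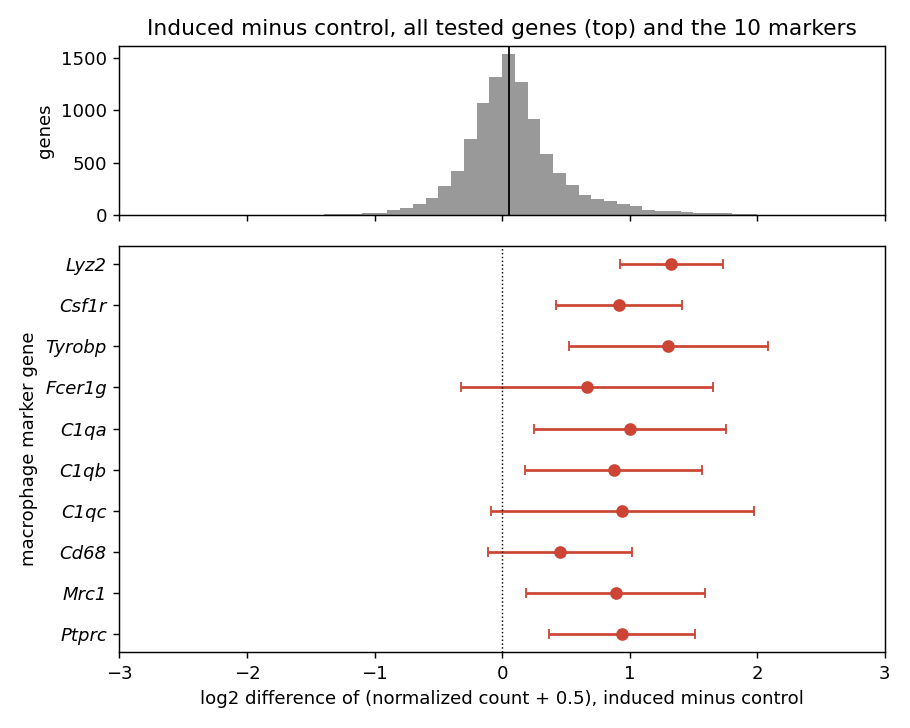
Log2 difference between induced and control libraries, as a histogram over the 10238 genes tested that fall between -3 and 3 with the median as a line (top), and for each macrophage marker gene with its 95% interval from limma (bottom). The marker genes lie between 0.45 and 1.33, and the intervals of *Fcer1g*, *C1qc* and *Cd68* cross 0.

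The libraries within a group were not alike. Induced A held the highest level of 7 marker genes and induced B that of 3, *Tyrobp*, *C1qc* and *Cd68*. Control B held the lowest level of 7 marker genes and control A that of 3, *Lyz2*, *Tyrobp* and *Ptprc*. The summed count of control A was 1.31 times that of control B, and that of induced A was 1.29 times that of induced B.

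The make-up of the summed count differed most between libraries in *Lyz2* and *Cd68*. *Lyz2* made up 23.2% in control A, 35.5% in control B, 39.0% in induced A and 34.1% in induced B. Its share in control B lay within the induced range, so the groups overlapped. *Cd68* made up 21.5% and 15.6% in the controls and 10.3% and 15.7% in the induced libraries. *Csf1r* was the steadiest of the abundant markers, at 12.6% to 14.2% in all 4 libraries.

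**Figure D3:**
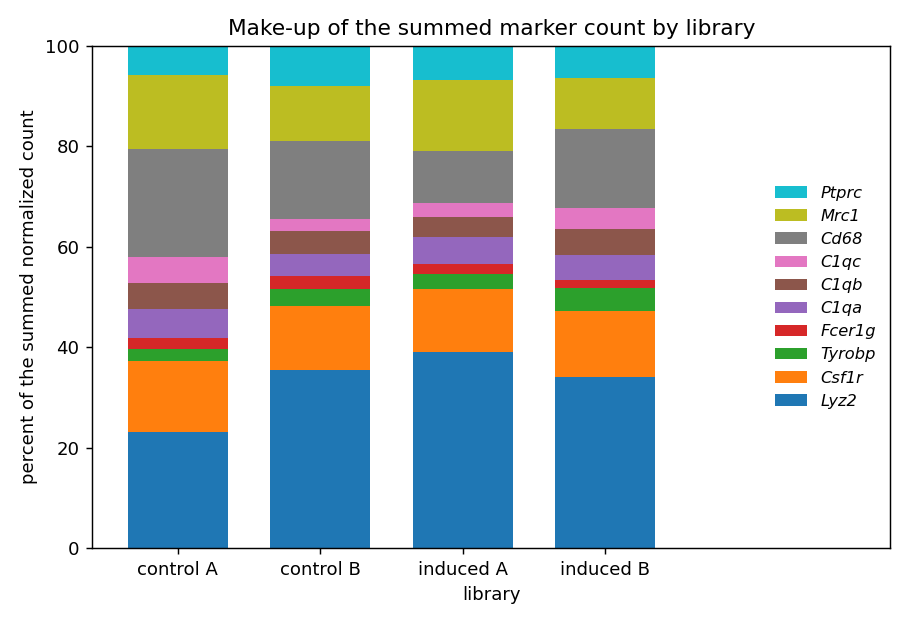
Percent of the summed normalized count of the 10 macrophage marker genes that each gene made up in each library, as stacked bars that reach 100%. *Lyz2* (bottom segment) made up from 23.2% in control A to 39.0% in induced A.

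Other genes of macrophages were read from a second list of 52, of which 7 also stand in another list used here. *Mertk* was above the limit and 13 were below the mean filter, so that 38 were tested. Of these, 3 rose past the adjusted p, beside 0.254% of all genes tested, and 0 fell. Both induced libraries lay above both controls for 27, or 71.1%, beside 26.3% of all genes. The median log2 difference was 0.88. *Mpeg1*, the pore-forming perforin-2 of phagocytes, had 97.0 and 96.3 in the controls and 257 and 276 in the induced libraries, at 1.46 ± 0.18 (limma adjusted p = 0.00644). *Plek*, the PKC substrate pleckstrin of blood cells, had 154 and 149 against 445 and 328, at 1.33 ± 0.18 (adjusted p = 0.0114). *Cd14*, the co-receptor for lipopolysaccharide, had 173 and 137 against 398 and 303, at 1.17 ± 0.19 (adjusted p = 0.0266). The controls of *Mpeg1* and *Plek* lay close together, and both induced libraries lay above them. The count of 3 became 1 without control A or without control B, when only *Mpeg1* passed, 3 without induced A, when *Lgmn* passed as lower and *Cd14* did not, and 5 without induced B.

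Some genes of this list, picked after their values were seen, did not have the order of the marker genes. *Maf*, a transcription factor of resident macrophages, had 745 and 831 in the controls and 811 and 545 in the induced libraries. *Sirpa*, the receptor for CD47, had 771 and 811 against 688 and 708, and the lysosomal protease gene *Lgmn* 1138 and 1163 against 1013 and 619. *Spi1*, which encodes PU.1, had 47.7 and 32.1 against 50.9 and 38.3, so that the groups overlapped. *Itgam*, which encodes CD11b, had 43.7 and 26.5 against 48.4 and 23.8. *Maf*, *Sirpa* and *Lgmn* are the most abundant genes in the summed count of the list, which was 4705 and 4527 against 6400 and 5025. *Mertk*, a receptor for the uptake of dying cells, had a higher mean still, 1576, and was not summed.

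Genes shared by leukocytes were read from a list of 20. Of these 17 were tested and 0 passed the adjusted p, with a median log2 difference of 0.83. An unadjusted p under 0.05 as higher was met by 11, beside 6.93% of all genes tested. Both induced libraries lay above both controls for 13, beside 26.3% of all genes. The summed count of this list was 1033 and 1000 in the controls and 1645 and 1672 in the induced libraries. Its most abundant genes were *Ptpn6*, which had 229 and 225 against 196 and 271, and *Lcp1*, the leukocyte plastin, which had 158 and 141 against 227 and 213, at 0.56 ± 0.17.

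Markers of the other cell types that a skin sort could hold were read beside these values, and their part in the result was not tested. Of the mast cell list 11 of 11 genes were above 0, and their summed count was 218 and 142 in the controls, 245 in induced A and 602 in induced B. Its most abundant genes were *Kit*, the stem cell factor receptor that melanocytes share, with 75.2 and 32.1 against 88.2 and 170, and *Hdc*, the enzyme that makes histamine, with 64.7 and 37.7 against 56.0 and 108. Of its 6 tested genes, 0 passed the adjusted p, 3 had an unadjusted p under 0.05 as higher and 5 had both induced libraries above both controls, with a median log2 difference of 1.23, above the 0.93 of the macrophage markers. Of the melanocyte list 9 of the 10 genes in the table were summed, without *Mitf*, which was above the limit. The sum was 986 and 389 in the controls and 872 and 2253 in the induced libraries, led by *Dct*, an enzyme of melanin synthesis, with 388 and 170 against 394 and 1041. Of its 7 tested genes, 0 passed the adjusted p, 4 had an unadjusted p under 0.05 as higher and 4 had both induced libraries above both controls, with a median of 1.31. Over all genes tested, an unadjusted p under 0.05 as higher was met by 6.93%. Both induced libraries lay above both controls for 26.3% of them. In both sums induced B was the highest library by far, whereas the sum of the macrophage markers was higher in induced A.

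The suprabasal and sebaceous list had 2609 and 1671 in the controls and 3054 and 4026 in the induced libraries over 7 genes that could be summed. All 7 were tested and 0 passed the adjusted p, with a median log2 difference of 0.70. Both induced libraries lay above both controls for 5, or 71.4%, beside 26.3% of all genes. An unadjusted p under 0.05 as higher was met by 4, beside 6.93% of all genes tested. The endothelial list had 297 and 179 against 290 and 365 over 11 genes. Its most abundant genes were *Vwf*, with 43.7 and 51.7 against 68.7 and 66.2, and *Tek*. The groups overlapped for *Tek*, with 80.1 and 30.7 against 45.8 and 48.6, at -0.07 ± 0.43. Of 9 endothelial genes tested, 3 had both induced libraries above both controls, beside 26.3% of all genes. The fibroblast list had 1205 and 660 against 866 and 1231 over 4 genes, with 6 more, *Col6a1* and *Col1a1* the most abundant, above the limit. Both of these sums overlapped between the groups. The Langerhans and dendritic list had 733 and 704 against 912 and 1003 over 13 genes, without *Cd74* and 3 MHC class II genes above the limit. Of 9 genes tested, 0 passed the adjusted p, and the median log2 difference was 0.41. Both induced libraries lay above both controls for 5, or 55.6%, beside 26.3% of all genes. An unadjusted p under 0.05 as higher was met by 2, beside 6.93% of all genes tested. *Cd207*, the Langerhans cell lectin langerin, had 256 and 205 against 189 and 324 and overlapped. *Cd209a*, a lectin of dermal dendritic cells named after its values were seen, had 22.6 and 40.5 against 130 and 74.5, at 1.68 ± 0.39.

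Lymphoid and granulocyte markers were low. Of the T and NK cell list 14 of 15 genes in the table were above 0, *Cd8a* was listed at 0 and *Cd3d* had a mean of 0.90. The sum without *Thy1*, which was above the limit, was 44.5 and 55.8 in the controls and 60.2 and 42.4 in the induced libraries. Of the B cell list 5 of 6 genes were above 0, *Pax5* was listed at 0, and the sum ran from 6.79 to 15.5 in a library. Of the neutrophil list 6 of 11 genes were above 0, and *Mpo*, *Elane*, *Camp*, *Ngp* and *Ltf* were listed at 0. The neutrophil receptor gene *Csf3r* had 4 and 2 reads in the controls and 24 and 13 in the induced libraries. The calprotectin genes had fewer, *S100a8* 1 and 1 against 5 and 4 and *S100a9* 0 and 0 against 3 and 3. These genes, picked after their values were seen, were higher in both induced libraries. *Cxcr2* went the other way, with 4 and 2 reads against 0 and 0. *Retnlg* had 0 and 0 reads against 0 and 2 and overlapped. All of these genes were below the mean filter. *Mmp9*, a gelatinase of neutrophil granules that macrophages also make, rose from 4.85 and 5.58 to 54.3 and 42.4, at 3.09 ± 0.54 (limma adjusted p = 0.0388), and made up most of the neutrophil sum of 12.1 and 12.6 against 81.4 and 65.2. Neutrophils express *Lyz2* too, and their part in its difference was not tested.

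Of the hair follicle stem cell and sort list, 12 of 15 genes were above the limit. The other three, *Tcf7l1*, *Tcf7l2* and *Ly6a*, summed to 1287 and 1396 in the controls and 1377 and 1341 in the induced libraries. *Tcf7l1*, a repressor of Wnt targets in HF-SCs, had 518 and 670 against 569 and 604, at -0.01 ± 0.14. *Tcf7l2* had 623 and 666 against 649 and 558, at -0.10 ± 0.13.

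**Figure D4:**
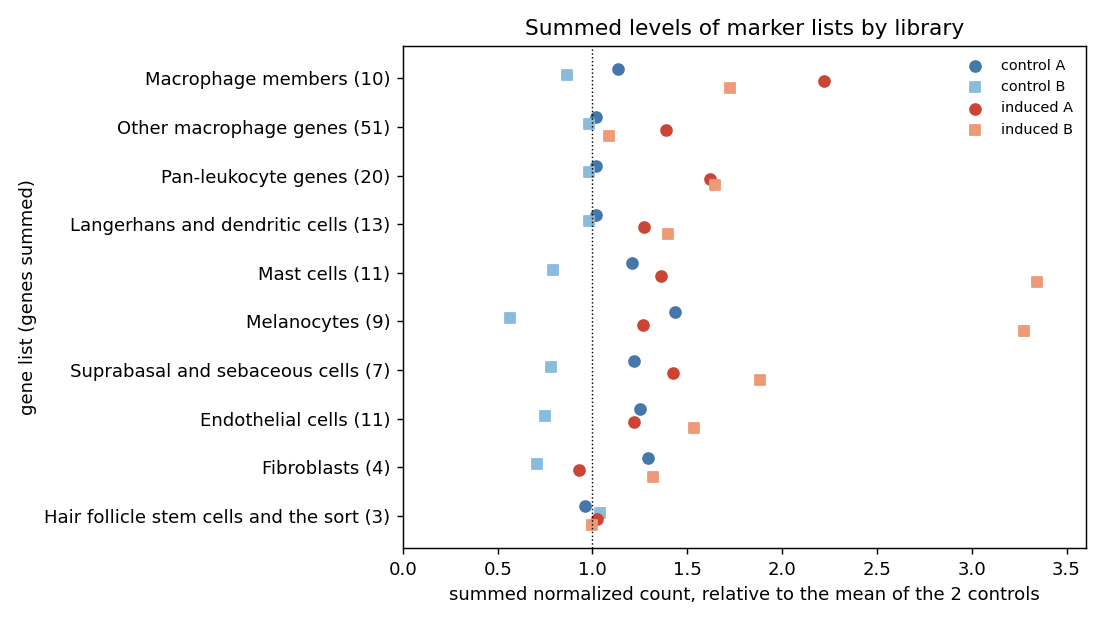
Summed normalized count of each marker list in each library, divided by the mean of the 2 control libraries (dotted line at 1), with the number of genes summed in brackets. The macrophage markers reach 2.22 in induced A and 1.73 in induced B, the mast cell and melanocyte lists reach 3.35 and 3.28 in induced B, and the fibroblast list overlaps between the groups.

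The genes whose profile over the 4 libraries was nearest to that of the summed markers were found among 9308 genes with a mean of at least 20, by Euclidean distance of centred log2 values. They were *Synm*, *Col27a1*, *Zfp58*, *Mms22l*, *Atp12a*, *Cux1*, *Asb8*, *Lilr4b*, *Bard1* and *Krt42*, at distances from 0.09 to 0.16. *Cux1*, the most abundant of them, had 252 and 209 in the controls and 499 and 424 in the induced libraries. Among the markers, *Csf1r* was nearest to the sum, at 0.13, and *C1qc* farthest, at 0.89. With 4 libraries many genes can share a profile, and no test was made.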

How the data were processed

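The authors used HISAT2 2.1.0 for aligning the paired-end RNA-seq reads and SAMtools 1.3.1 for converting the alignments, took gene counts from HTSeq and compared 2 control with 2 induced libraries in DESeq2. The sources used here name no annotation. The stated genome, NCBI37/mm10, joins a pair of builds that differ. The deposited signal is the mean normalized count over the 4 libraries, in which each library's reads are divided by a size factor. The deposited table also holds the authors' log2 fold change with its error, test statistic and raw and adjusted p-values. These hold the study's own comparison and were not used, except that the sign of the log2 fold change in genes with 1 read in 1 library told which group that library belonged to. The recovered values were also checked once against the deposited fold changes, outside the results given here.

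Whole reads per library were solved for from the mean (numpy 2.4.6, numba 0.67.0). The steps of the mean that 1 read makes gave the 4 size factors, and a solution had to match within 1.5 units of the 15th significant digit. This tolerance was widened after it was seen that narrower ones left some genes unsolved. All 14591 genes with a mean up to 1000 had 1 solution, and 2453 genes above it were not resolved. In simulated data, 1918 of 1918 read sets were recovered exactly. Reads in the resolved genes were 3337862 and 1912745 in control A and B and 3165843 and 2594711 in induced A and B.

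Differences were fitted by limma 3.58.1 (R 4.3.3) with a mean-variance trend on log2(normalized count + 0.5), for 10238 genes with a mean of at least 10, and adjusted by Benjamini-Hochberg over all of them. With 2 against 2 libraries an exact permutation test cannot go below p = 0.333. Alternatives were another pseudocount, other filters, voom weights, recomputed size factors, subtraction of bin medians, leaving out each library and, added after the data were seen, a block for each possible pairing. The marker genes and all lists were chosen with earlier results of these data known. Named genes were all markers, from each other list the genes past the adjusted p and, where few passed, its most abundant genes, the 10 nearest profiles and the genes of the sort and the induction. Other genes named are said to have been picked after their values were seen, or are *Il34* and *Csf1* as ligands, *Lyz1* as a near copy and genes named as absent or as not following the order. Intervals of reads cover counting error only.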

Additional observations from a re-analysis of the deposited data

How the results depend on the processing

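The libraries resolved from the mean carry no replicate number of the labels, so both possible pairings were fitted with a replicate block, a setting chosen after the data were seen, with 1 residual degree of freedom per gene. With control A paired with induced A, 57 genes in all, 1 marker gene and 3 other macrophage genes passed. With control A paired with induced B, 472 genes in all, 6 marker genes (*Lyz2*, *Csf1r*, *Tyrobp*, *C1qa*, *Mrc1* and *Ptprc*) and 12 other macrophage genes passed. Of these 12, 11 were higher in the induced libraries, and *Lgmn* was lower, at -0.54. Neither pairing is given by the labels, and the cause of the gap was not tested. All 10 marker genes kept a positive difference in all 126 combinations of gene and setting that could be computed, from 0.03 to 1.69 on the log2 scale. Apart from the pairings, the call changed for *Lyz2* without control A and without control B, and for *Mrc1* without induced B (1.32, adjusted p = 0.0340, limma). The count of all genes past the adjusted p was 50, and became 85 with no filter on the mean and 5 among genes with a mean of 200 or less, where 0 marker genes (*Lyz2* lies above that mean) and 1 other macrophage gene passed. Leaving out each library gave 22 to 102 genes in all, 22 without control B and 102 without induced B, 0 to 2 marker genes, 1 to 5 other macrophage genes, and a log2 ratio of the summed markers from 0.79 to 1.19. A group left with 1 library was assumed to vary like the other. The other settings gave 44 to 55 genes in all, 1 marker gene and 3 other macrophage genes. Recomputed size factors moved the median of all genes from 0.05 to 0.00 and the log2 ratio of the summed markers from 0.98 to 0.93. Pseudocounts and bin medians were not applied to the summed count. Depth limits *C1qc*, *Fcer1g* and *Tyrobp* most, with 13, 14 and 19 reads in control B.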
